A study of Drosophila melanogaster with 62 samples.

Results

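Heat shock proteins are molecular chaperones that bind unfolded or unstable proteins, help them to fold and keep them from aggregating. Several of their genes are switched on by the transcription factor HSF when cells are heated or otherwise stressed, while others are expressed in unstressed cells throughout life. In *Drosophila* the mother also loads the mRNAs of some heat shock proteins into the oocyte, and many maternal mRNAs are cleared from the embryo as its own genome is switched on at the maternal-to-zygotic transition. The 8 genes described here are *Hsp83* (HSP90), *Hsc70-4* (a constitutive HSP70), *Hsp70Aa* (a copy of the heat-inducible *Hsp70*), *Hsp60A* (the mitochondrial chaperonin) and the small heat shock protein genes *Hsp26*, *Hsp27*, *Hsp23* and *Hsp22*. They were picked by FlyBase symbol and not by a cutoff on their measured values, although earlier results of these data were known. All 8 are among the 17510 genes of the read count table.

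RNA-seq was performed on 62 single oocytes and single staged embryos in 16 groups. *HisRFP* controls carried His2Av-RFP(III), a fluorescent histone on the third chromosome. *brat*-mutant samples were oocytes from, or embryos laid by, *brat* Df(2L)TE37C-7/fs1 mothers that also carried His2Av-RFP(III) and were crossed to their brothers. *brat* het samples came from mothers with a single mutant allele over CyO (Df or fs1, not given for each library), again with His2Av-RFP(III). BRAT is an RNA-binding protein that the mother supplies and that represses translation and promotes decay of its target mRNAs. The genotype named is therefore that of the mother, and embryos were not genotyped one by one. *HisRFP* and *brat*-mutant samples covered oocytes, nuclear cycle (NC) 10, NC12, NC13, early NC14 and later NC14, and *brat* hets the same without NC13 and early NC14, with 4 libraries per group (A to D), or 3 at NC13 (A, C and D). Flies were kept at 25°C and no heat shock was given to any sample. Embryos were dechorionated in bleach, imaged and picked at their nuclear cycle, and oocytes were dissected from ovaries.

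Libraries held between 4000899 and 41029921 reads counted on genes, with a median of 13015435.5. The 14 NC13 and early NC14 libraries were deeper than most others, so depth and stage cannot be told apart for steps that enter or leave these stages. Levels are given as CPM (read counts scaled to a common library size of 1000000) with TMM scaling, and a count of 3 reads corresponds to between 0.0775 and 0.699 CPM, depending on the library. In oocytes, the summed level of 19 follicle cell markers (eggshell genes) ran from 2.87 to 31016 CPM in *HisRFP*, from 17602 to 60198 CPM in *brat* hets and from 55.4 to 267 CPM in *brat* mutants. In embryos it reached at most 125 CPM. *brat* RNA itself had a median of 499 CPM in *brat*-mutant oocytes and 745 CPM in *HisRFP* oocytes (log2 fold change -0.60, adjusted p = 0.231, edgeR), and was higher in *brat* mutants than in *HisRFP* at early NC14 (medians 993 and 101 CPM, log2 fold change 3.26, adjusted p = 2.41e-07).

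*Hsp26* (3L:9376418-9377427, minus strand, dm6), *Hsp23* (3L:9381882-9382765, plus strand), *Hsp27* (3L:9384063-9385694, plus strand) and *Hsp22* (3L:9372931-9374964, plus strand) lie close together on chromosome arm 3L. *Hsp83* (3L:3192969-3197059, plus strand) lies elsewhere on the same arm, *Hsc70-4* (3R:15242687-15246614, plus strand) and *Hsp70Aa* (3R:11954163-11956544, minus strand) on 3R, and *Hsp60A* (X:11108482-11112308, plus strand) on X. For 2 members the way in which reads were counted limits what can be said. *Hsp22* had 0 reads in all 62 libraries. All of its 1900 exonic bases are shared with CG4456 (*Hsp67Bb*) on the same strand, and reads that overlap more than 1 gene were not counted, so its level cannot be read from this table and no limit on it was computed. *Hsp70Aa* is nearly identical to other *Hsp70* copies, and reads with several alignments were discarded, so its counts are a lower part of its true level and the copies cannot be separated with certainty. The other 6 members share at most 3.002% of their exonic bases with another gene (*Hsp27* with a pseudogene on the other strand).

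Per kilobase of exon, the 6 well-counted members covered a wide range in *HisRFP* oocytes. *Hsc70-4* was highest at 2115 ± 355 CPM per kb (SD, n = 4), the level of rank 16 among 10389 genes. It was followed by *Hsp26* at 1602 ± 383 and *Hsp83* at 1435 ± 195 CPM per kb, and neighbours among these 3 overlapped between oocytes. Then came *Hsp27* at 528 ± 57.2, *Hsp60A* at 264 ± 76.4 and *Hsp23* at 75.05 ± 42.1 CPM per kb, which did not overlap. By later NC14 the order in *HisRFP* had changed. *Hsc70-4* remained highest at 2465 ± 424 CPM per kb (rank 21), *Hsp23* was next at 194 ± 25.2, and *Hsp83* (122 ± 53.1), *Hsp26* (40.2 ± 10.6), *Hsp27* (10.1 ± 10.9) and *Hsp60A* (3.74 ± 2.08) followed. Here *Hsp23* overlapped with *Hsp83*, and *Hsp27* with both *Hsp26* and *Hsp60A*. Thus *Hsp83*, *Hsp26*, *Hsp27* and *Hsp60A* were at 8.48%, 2.51%, 1.92% and 1.41% of their oocyte means in CPM at later NC14, whereas *Hsc70-4* and *Hsp23* were at 117% and 258%.

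**Figure D1:**
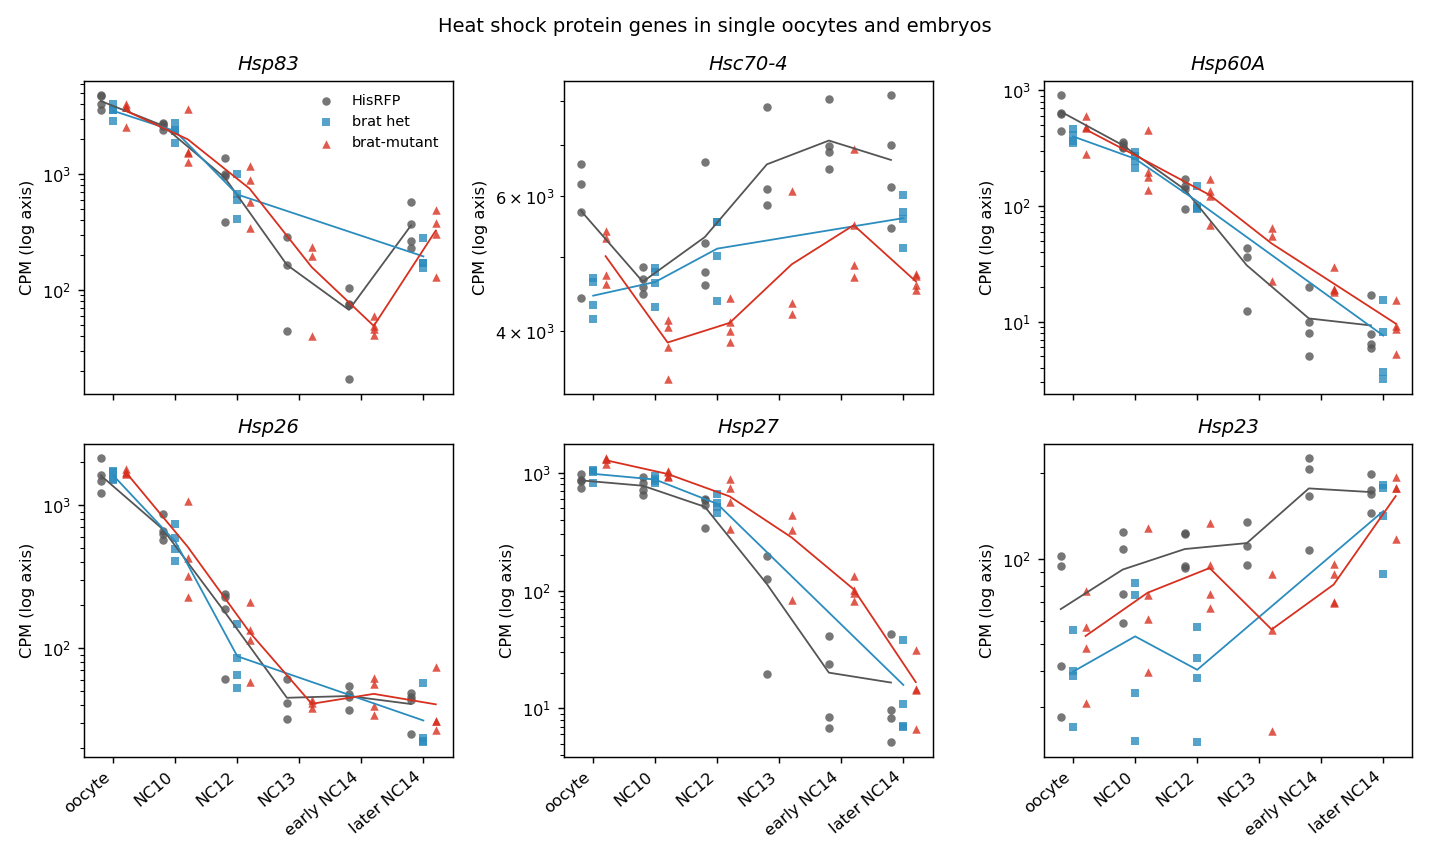
CPM (log axis) of 6 heat shock protein genes in every library, by stage and genotype of the mother. Each point is a single oocyte or embryo and lines join the group means. In *HisRFP*, *Hsp83* goes from a mean of 4247 CPM in oocytes to 67.5 CPM at early NC14 and 360.2 CPM at later NC14, while *Hsc70-4* stays between group means of 4636 and 7097 CPM.

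To see when each mRNA changed, consecutive stages were compared within a genotype. A gene is said to have risen or fallen where edgeR's quasi-likelihood test gave an adjusted p below 0.05 (Benjamini-Hochberg over all genes tested) with a log2 fold change above 1 or below -1. CPM are relative levels within a library, so a change in the total mRNA of the embryo is not seen.

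*Hsp83* encodes the cytosolic HSP90 that holds kinases, receptors and other client proteins in an active state. Its *HisRFP* means went down at each step from the oocyte to early NC14, not all of which passed, and it then rose. In *HisRFP* oocytes it stood at 4767, 4019, 4666 and 3537 CPM. At NC10 it was 2690.4, 2386, 2759.6 and 2605 CPM, below every oocyte, and at NC12 it was 1368, 990.2, 389 and 957 CPM. The 3 NC13 embryos had 163, 44.5 and 286 CPM and the early NC14 embryos 17.0, 73.7, 75.3 and 104 CPM. At later NC14 it was back at 369, 263, 230.3 and 578 CPM, above every early NC14 embryo. The step from NC10 to NC12 (log2 fold change -1.45, SE 0.30, adjusted p = 0.00686, edgeR), the step from NC12 to NC13 (-2.49, SE 0.68, adjusted p = 0.0268) and the rise from early to later NC14 (2.57, SE 0.49, adjusted p = 0.00264) passed. The step from the oocyte to NC10 had an adjusted p of 0.00448 at a log2 fold change of -0.78, under the fold threshold, and the step from NC13 to early NC14 did not pass (-1.29, SE 0.70, adjusted p = 0.257).

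*Hsp83* means also went down to early NC14 and up again in *brat* mutants, but there only the rise passed. The 4 falling steps had adjusted p of 0.0879, 0.071, 0.0878 and 0.155 (edgeR), and NC10 embryo A, at 3638 CPM, lay within the range of the oocytes. *brat*-mutant embryos had 48.8, 60.3, 41.2 and 46.1 CPM at early NC14 and 379, 489.9, 303 and 129 CPM at later NC14, groups that did not overlap (log2 fold change 2.94, SE 0.34, adjusted p = 5.63e-05, edgeR). In *brat* hets *Hsp83* was at 3498 ± 458 CPM in oocytes, 2339 ± 379.8 at NC10, 666 ± 244 at NC12 and 195 ± 58.1 CPM at later NC14 (SD, n = 4). There the steps from NC10 to NC12 and from NC12 to later NC14 passed, and that from the oocyte to NC10 did not. The low point at early NC14 was not sampled in *brat* hets.

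*Hsp26*, a small heat shock protein that is made in the female germ line without stress, fell from the oocyte on. Its level in *HisRFP* was 2139, 1635, 1473 and 1224 CPM in oocytes, 871, 658, 568 and 627 CPM at NC10 and 238, 228, 60.9 and 187 CPM at NC12, with no overlap between these stages. From NC13 on it stayed between 24.9 and 61.0 CPM. It fell from the oocyte to NC10 in *HisRFP* (log2 fold change -1.31, SE 0.19, adjusted p = 0.00115, edgeR), in *brat* hets (-1.58, SE 0.17, adjusted p = 4.16e-05) and in *brat* mutants (-1.77, SE 0.45, adjusted p = 0.0197). The last call was lost when *brat*-mutant NC10 embryo C or D was left out. *Hsp26* had no later rise like that of *Hsp83*. From early to later NC14 its log2 fold change was -0.04 (SE 0.23, adjusted p = 0.905) in *HisRFP* and -0.01 (SE 0.36, adjusted p = 0.989) in *brat* mutants.

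*Hsp27*, also a small heat shock protein of the female germ line, kept its maternal level longer. It was 977, 749, 849.8 and 871 CPM in *HisRFP* oocytes and 921, 718, 653 and 811 CPM at NC10, which overlap, and 583, 599, 340.3 and 533 CPM at NC12, below every NC10 embryo. That step had an adjusted p of 0.0441 at a log2 fold change of -0.54 (edgeR), and one of 0.00156 at -0.56 in *brat* hets, both under the fold threshold. It went on to 125, 19.5 and 197 CPM at NC13, to 6.75, 41.3, 8.41 and 23.9 CPM at early NC14 and to 8.29, 9.75, 5.13 and 43.1 CPM at later NC14. In *HisRFP* the step from NC12 to NC13 passed (log2 fold change -2.18, SE 0.68, adjusted p = 0.0378, edgeR). In *brat* hets the fall from NC12 to later NC14 was the steepest of the members (-4.89, SE 0.55, adjusted p = 4.52e-05).

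*Hsp60A*, which folds proteins in the mitochondrial matrix, fell at each step from the oocyte to NC13 in *HisRFP*. In *HisRFP* it was 627, 447, 907 and 639.8 CPM in oocytes, 344, 315, 323 and 359 CPM at NC10, 173, 141, 93.2 and 148 CPM at NC12 and 36.1, 12.3 and 43.5 CPM at NC13, and it was between 5.01 and 19.8 CPM in the 8 NC14 embryos. Each of the first 3 steps passed, with log2 fold changes of -1.06 (SE 0.23, adjusted p = 0.00877, edgeR), -1.21 (SE 0.15, adjusted p = 0.00113) and -2.18 (SE 0.44, adjusted p = 0.0221). The last steps did not pass (-1.53, adjusted p = 0.204, and -0.05, adjusted p = 0.941). The first of these 5 was lost without *HisRFP* oocyte C, which had the highest *Hsp60A* level. It was also lost when scaled to library totals and in a fit of all 62 libraries. The step from NC12 to NC13 was lost without NC12 embryo A, B or D or without NC13 embryo A.

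*Hsc70-4*, the major constitutive HSP70, which folds new proteins and uncoats clathrin vesicles, did not take part in the fall. In *HisRFP* its lowest library was at 4409 CPM (an oocyte) and its highest at 8137 CPM (later NC14), and none of its 5 steps passed. *Hsp23*, a small heat shock protein, was low in oocytes and higher at NC14. *HisRFP* oocytes had 93.8, 102, 27.6 and 41.7 CPM and early NC14 embryos 207, 167, 226 and 107 CPM, but no single step in *HisRFP* passed (log2 fold changes between 0.06 and 0.65). In *brat* mutants *Hsp23* rose from 88.4, 70.4, 69.4 and 95.6 CPM at early NC14 to 177, 193, 117 and 177 CPM at later NC14 (1.25, SE 0.19, adjusted p = 0.000263, edgeR), and in *brat* hets from 40.6 ± 14.5 CPM at NC12 to 147 ± 42.9 CPM at later NC14 (2.13, SE 0.32, adjusted p = 0.000263; SD, n = 4).

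Set against all genes tested, 2 of 6 members were called from the oocyte to NC10 in *HisRFP*, both lower, where 12.7% of all genes were called. From NC10 to NC12 it was 3 of 6, all lower, against 14.9%, and from NC12 to NC13 4 of 6, all lower, against 22.4%. The median log2 fold changes of the members over these steps were -0.59, -0.87 and -2.09, beside -0.04, 0.06 and 0.03 over all genes tested. The 4 calls from NC12 to NC13 depended on the embryos fitted: leaving out NC12 embryo A, B or D or NC13 embryo A left 0 of them. Over all refits the weakest of their log2 fold changes was -1.68 (*Hsp27*) and the highest adjusted p 0.0922 (*Hsp26*, edgeR). The share of all genes called without these embryos was not computed. From NC13 to early NC14 none was called by edgeR, where 0% of all genes were called, although 3 members and 1800 of all 7676 genes had an unadjusted p under 0.05. DESeq2 called 1 member there (*Hsp27*) and 393 genes in all. From early to later NC14 1 of 6 members (*Hsp83*) was called, against 34.3% of all genes.

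In *brat* mutants the counts were 1 of 6 from the oocyte to NC10 (12.4% of all genes), 0 of 6 from NC10 to NC12 (2.24%), 0 of 6 from NC12 to NC13 (0%), 0 of 6 from NC13 to early NC14 (0%) and 4 of 7 from early to later NC14 (45.6%), where *Hsp83* and *Hsp23* rose and *Hsp27* fell. The remaining call was *Hsp70Aa*, which reached the minimum of 50 reads for testing only through the later NC14 embryos. At the 3 middle steps with no call, edgeR gave an unadjusted p under 0.05 for 2, 3 and 3 members and DESeq2 called 2, 3 and 3. Over all genes, 2951, 2849 and 1718 had an unadjusted p under 0.05 at these steps and DESeq2 called 952, 1077 and 595. Without *brat*-mutant NC10 embryo A the count from the oocyte to NC10 was 3, and without NC13 embryo A that from NC13 to early NC14 was 3. For these left-out fits the share of all genes called was not computed. In *brat* hets 1 of 6 members was called from the oocyte to NC10 (19.2% of all genes), 3 of 6 from NC10 to NC12 (16.1%) and 5 of 6 from NC12 to later NC14 (47.6%), where *Hsp23* rose and *Hsp83*, *Hsp26*, *Hsp27* and *Hsp60A* fell. The steps within *brat* mutants and *brat* hets were added after the first results had been seen. The oocyte steps run beside the follicle cell markers given above, whose part in them was not tested.

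Embryos of the same labelled stage were not alike. The *brat*-mutant NC10 embryo A had 3638 CPM of *Hsp83*, whereas B, C and D had 1266, 1535 and 1526 CPM. Its *Hsp26* was at 1069.5 CPM, beside 229, 322 and 431 CPM, and its *Hsp60A* at 454 CPM, beside 136, 195 and 178 CPM. At NC12, *HisRFP* embryo C and *brat*-mutant embryo B were the lowest of their groups in *Hsp83*, *Hsp26*, *Hsp27* and *Hsp60A*. The members did not all go together, however. *Hsp27* in *brat*-mutant NC10 embryo A was at 1036 CPM beside 917, 1009.7 and 942 CPM, *HisRFP* NC13 embryo C had the lowest *Hsp83* and the highest *Hsp26* of its group, and *brat*-mutant later NC14 embryo D had the lowest *Hsp83* and the highest *Hsp26*, *Hsp27* and *Hsp60A*.

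The summed level of 13 early zygotic genes, such as *ftz*, *eve* and *Kr* (12 of them with at least 50 reads), differed between the same embryos. It was 1704 CPM in *HisRFP* NC12 embryo C and between 794 and 974 CPM in the other 3, and 5259 CPM in *HisRFP* NC13 embryo C beside 1623 and 1861 CPM in A and D. In *brat* mutants it was 1453 CPM in NC12 embryo B beside 794 to 1171 CPM, 4703 CPM in NC13 embryo A beside 1656 and 1969 CPM, and 249 CPM in NC10 embryo A, the lowest of its group. In each of the 8 groups from NC10 to NC13 the embryo with the most zygotic marker reads had the least *Hsp83*. The same embryo had the least *Hsp60A* in 7 of the 8 groups, the least *Hsp26* in 6, the least *Hsp27* in 5, the least *Hsp23* in 2 and the least *Hsc70-4* in 1. In the 8 groups of the other stages it had the least *Hsp83* in 0 and the most in 2. This was looked for, and the stages chosen, after the values had been seen, CPM of different genes share a total, and the part of developmental age in the spread within a stage was not tested.

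**Figure D2:**
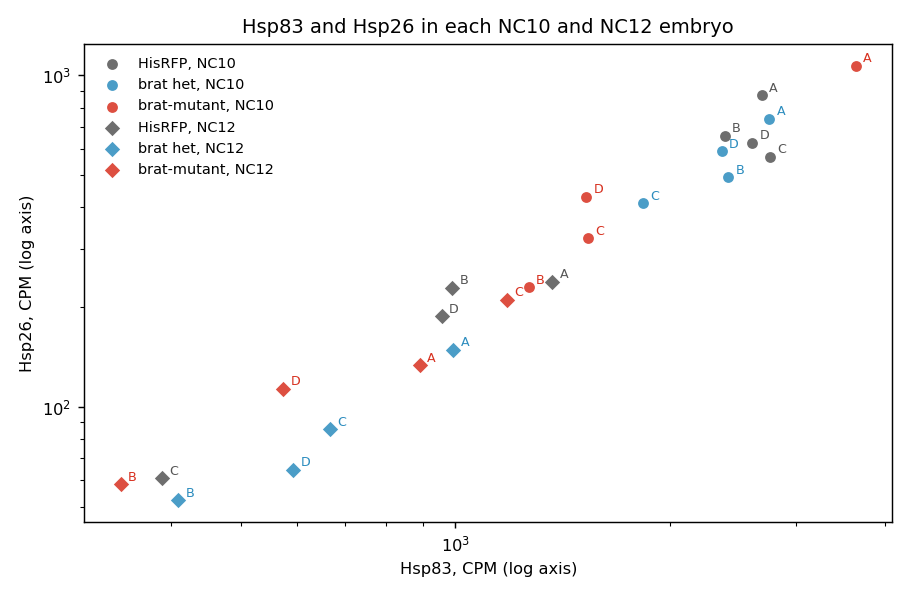
*Hsp26* against *Hsp83* in each NC10 embryo (circles) and NC12 embryo (diamonds), both in CPM on log axes, with the replicate letter beside each point. *brat*-mutant NC10 embryo A lies at 3638 CPM of *Hsp83* and 1069.5 CPM of *Hsp26*, apart from the other 3 embryos of its group, and *HisRFP* NC12 embryo C at 389 and 60.9 CPM.

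The main question of the design is which mRNAs differ when the mother lacks functional BRAT. In oocytes, at NC10, at NC12 and at NC13 no member was called between *brat* mutants and *HisRFP* by edgeR or by DESeq2 (0 of 7, 6, 6 and 6 tested), where 1.15%, 3.27%, 5.64% and 3.91% of all genes were called. Over all genes, 1173 of 7310, 1206 of 6842, 1635 of 6831 and 1364 of 7316 had an unadjusted p under 0.05 at these stages. At each of them so did 1 member. In oocytes it was *Hsp27*, at 1302, 1328, 1181 and 1305 CPM in *brat* mutants, above all 4 *HisRFP* oocytes (log2 fold change 0.57, SE 0.15, adjusted p = 0.101, edgeR). At NC10, without *brat*-mutant embryo A, 1 member was called, and the share of all genes called in that fit was not computed.

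**Figure D3:**
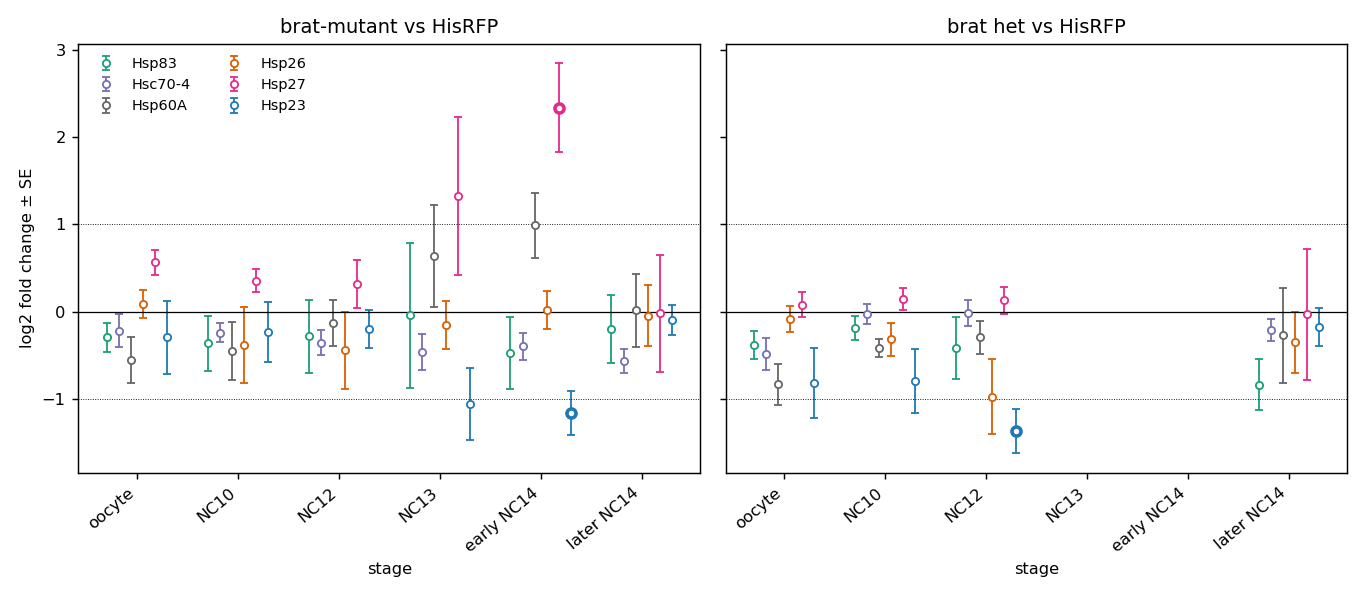
Log2 fold change with its standard error for 6 heat shock protein genes, *brat* mutant over *HisRFP* (left) and *brat* het over *HisRFP* (right), at each stage sequenced. Large filled points passed the test and dotted lines mark log2 fold changes of 1 and -1. *Hsp27* at 2.34 and *Hsp23* at -1.16 passed at early NC14 in *brat* mutants, and *Hsp23* at -1.37 passed at NC12 in *brat* hets.

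At early NC14 2 of 6 members were called, in opposite directions, where 13.8% of all genes were called. *Hsp27* was higher in *brat* mutants, at 81.1, 133, 101 and 94.7 CPM, than in *HisRFP*, at 6.75, 41.3, 8.41 and 23.9 CPM, and the groups did not overlap (log2 fold change 2.34, SE 0.51, adjusted p = 0.00962, edgeR). Its neighbour *Hsp23* was lower, at 88.4, 70.4, 69.4 and 95.6 CPM against 207, 167, 226 and 107 CPM, again without overlap (-1.16, SE 0.25, adjusted p = 0.00884). Both calls held in all 15 other fits, with adjusted p up to 0.0334 for *Hsp27* and 0.0323 for *Hsp23*. *Hsp26*, which lies beside them on 3L, did not differ (0.02, SE 0.22, adjusted p = 0.965).

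At NC13 the same pair differed in the same directions, without passing the test. *Hsp27* was at 82.5, 326 and 438 CPM in *brat* mutants and 125, 19.5 and 197 CPM in *HisRFP*, which overlap (log2 fold change 1.33, SE 0.90, adjusted p = 0.514, edgeR). *Hsp23* was at 88.2, 24.6 and 55.9 CPM against 110.4, 135 and 94.98 CPM, which do not overlap (-1.06, SE 0.41, adjusted p = 0.235). *Hsp60A* at early NC14 was at 18.0, 29.5, 19.2 and 18.7 CPM in *brat* mutants and 5.01, 9.86, 7.91 and 19.8 CPM in *HisRFP* (0.99, SE 0.37, adjusted p = 0.0879), and passed without *HisRFP* embryo D, the highest of its group (1.43, adjusted p = 0.00952).

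At later NC14 neither gene passed. *Hsp27* was at 14.4, 14.5, 6.62 and 31.3 CPM in *brat* mutants and 8.29, 9.75, 5.13 and 43.1 CPM in *HisRFP* (log2 fold change -0.02, SE 0.67, adjusted p = 0.987, edgeR). This value rests on *HisRFP* embryo D, without which it was 1.10 (SE 0.49, adjusted p = 0.152). *Hsp23* was at 177, 193, 117 and 177 CPM (-0.09, SE 0.17, adjusted p = 0.729). Within *brat* mutants *Hsp27* fell from early to later NC14 (-2.39, SE 0.41, adjusted p = 0.000676) while in *HisRFP*, which was already low, it did not change beyond its spread (-0.14, SE 0.75, adjusted p = 0.89). The difference between these 2 changes was tested as an interaction, added after the first results. For *Hsp23* it passed (1.17, SE 0.31, adjusted p = 0.0231), with 8.86% of all genes called, and for *Hsp27* it did not (-2.21, SE 0.93, adjusted p = 0.128). In the fit of all 62 libraries *Hsp23* was lost (adjusted p = 0.166) and *Hsp27* passed (-2.31, adjusted p = 0.0289).

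**Figure D4:**
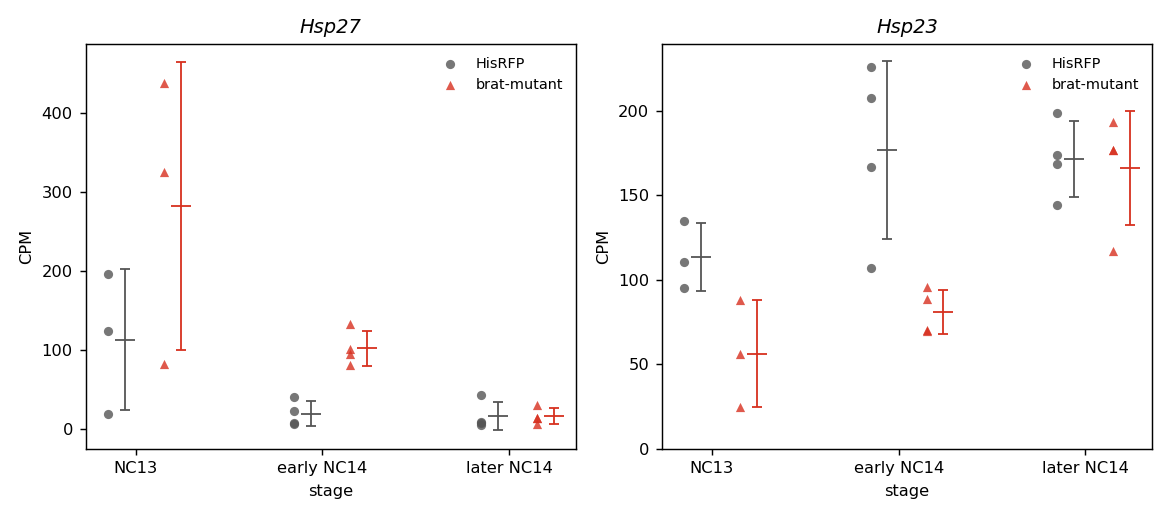
CPM (linear axis) of *Hsp27* and *Hsp23* in each NC13, early NC14 and later NC14 embryo of *HisRFP* and *brat* mutants, with the group mean and SD beside the points. At early NC14 the 4 *brat*-mutant embryos lie above all *HisRFP* embryos for *Hsp27* (81.1 to 133 against 6.75 to 41.3 CPM) and below them for *Hsp23* (69.4 to 95.6 against 107 to 226 CPM).

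The early NC14 groups also differed in other maternal RNAs. The summed level of 7 maternal germline markers ran from 4347 to 5494 CPM in *brat* mutants and from 1230 to 2926 CPM in *HisRFP*, without overlap. Most of this sum was *CycB* (4361 ± 469.9 against 1591 ± 485 CPM, SD, n = 4). *osk* was also higher in *brat* mutants (12.1 ± 4.49 against 5.55 ± 1.43 CPM), without overlap. The means of *bcd* (190 ± 205 against 170 ± 203 CPM), *gcl* (130 ± 20.8 against 76.6 ± 49.8 CPM) and *Bic-D* (218 ± 13.4 against 175 ± 53.1 CPM) were higher, but the groups overlapped. Those of *nos* (2.29 ± 1.16 against 40.7 ± 47.3 CPM) and *pgc* (1.49 ± 0.824 against 18.1 ± 22.2 CPM) were lower, within the *HisRFP* range. The 13 zygotic markers ran from 3689 to 5680 CPM in *brat* mutants and from 3544 to 7249 CPM in *HisRFP*, which overlap. The part of either list in the differences of *Hsp27* and *Hsp23* was not tested.

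At later NC14 0 of the 6 members other than *Hsp70Aa* were called between *brat* mutants and *HisRFP* by edgeR or DESeq2, with 1 at an unadjusted p under 0.05 (*Hsc70-4*), where 13.7% of all genes were called. Over all genes, 2946 of 7865 had an unadjusted p under 0.05. *Hsp70Aa* encodes the classical heat-inducible HSP70, which is nearly silent in unstressed cells. It had 167, 52, 2 and 68 reads in *brat*-mutant embryos A to D (17.3, 6.0, 0.179 and 8.30 CPM), 0, 1, 0 and 0 reads in *HisRFP* and 28, 0, 9 and 0 reads in *brat* hets. The level was thus high in *brat*-mutant embryos A, B and D and low in C, whose 2 reads are under the floor of 3, and *brat* hets A and C had reads while B and D had none. With 289 reads against 1, the ratio of pooled counts of *brat* mutants to *HisRFP* was 306 (95% exact interval 54.4 to 12117, counting error only). Embryo A held 167 of these reads, and without it the ratio was 171 (30.2 to 6827). The gene met the criteria for a call (adjusted p = 0.0047, edgeR), but it reached the minimum of 50 reads for testing only through the *brat*-mutant embryos, so the call is no support beyond the reads themselves. The filterByExpr function of edgeR removed it, and *brat* hets against *HisRFP* fell short of the minimum. Between *brat* mutants and *brat* hets *Hsp70Aa* was not called (log2 fold change 2.48, SE 1.23, adjusted p = 0.295).

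*Hsp70Ab*, the other copy at the same locus, had 110, 32, 0 and 45 reads in the same 4 *brat*-mutant embryos and 3, 0, 3 and 1 in *HisRFP*. The later NC14 embryos A to D of *brat* hets had 20, 1, 5 and 0 reads of it. *Hsp70Ba*, *Hsp70Bb*, *Hsp70Bbb* and *Hsp70Bc* had at most 16 reads in any later NC14 embryo of any genotype. Elsewhere *Hsp70Aa* had at most 17 reads per library, its highest level in *HisRFP* being 0.965 CPM in an oocyte. *Hsp70Bb* had 187 reads (8.70 CPM) in *brat*-mutant early NC14 embryo D and 13 to 28 in the other 3. *HisRFP* embryos A to D of that stage had 4, 3, 10 and 2 reads of it. 

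**Figure D5:**
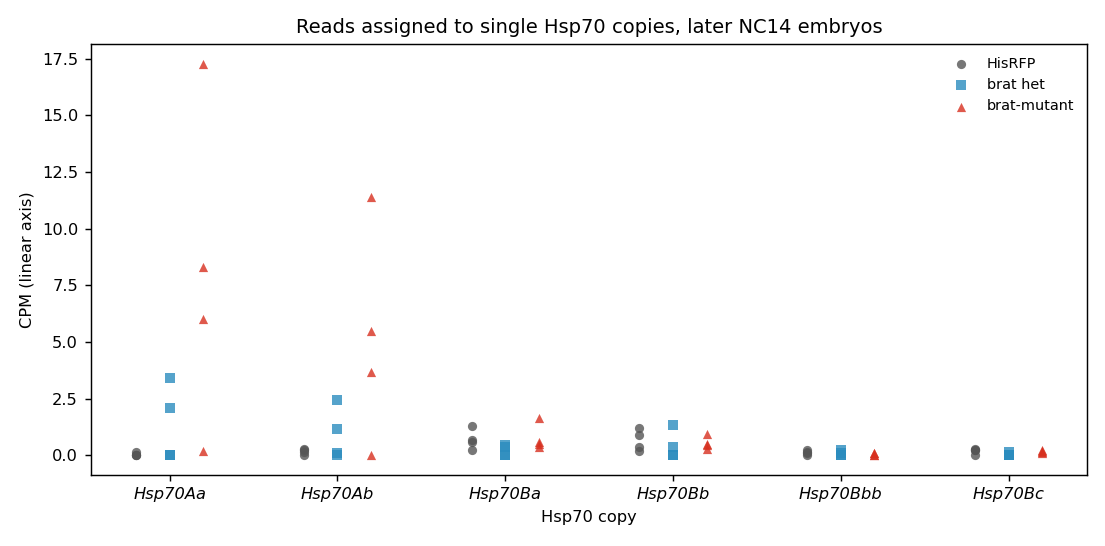
CPM (linear axis) of the reads assigned to each of 6 *Hsp70* copies in the 12 later NC14 embryos. *Hsp70Aa* reaches 17.3, 8.30 and 6.0 CPM in 3 *brat*-mutant embryos and *Hsp70Ab* follows in the same embryos, whereas the other 4 copies stay at or under 1.66 CPM.

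For the change from NC10 to later NC14, 0 of the 6 other members differed between *brat* mutants and *HisRFP* (edgeR interaction, none at an unadjusted p under 0.05 or by DESeq2), where 6.78% of all genes were called. *Hsp70Aa* was called there (adjusted p = 0.00738) on the same later NC14 reads that carried it over the minimum. For *brat* hets against *HisRFP* 0 of 7 members were called in this interaction by edgeR or DESeq2, 1 had an unadjusted p under 0.05 (*Hsp70Aa*), and 1.34% of all genes were called. Over all genes, 1794 of 8317 in the *brat*-mutant interaction and 979 of 8132 in the *brat* het interaction had an unadjusted p under 0.05. *Hsc70-4* was lower in *brat* mutants at later NC14, at 4747, 4585, 4714 and 4519.7 CPM against 6174, 7007, 8137 and 5459 CPM in *HisRFP*, without overlap (log2 fold change -0.57, SE 0.14, adjusted p = 0.0155), which is under the fold threshold. *Hsp83* did not differ (-0.20, SE 0.39, adjusted p = 0.746).

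In *brat* hets 0 of 6 members were called against *HisRFP* in oocytes, at NC10 and at later NC14 by edgeR or DESeq2, with 3, 1 and 1 at an unadjusted p under 0.05, where 1.92%, 3.44% and 3.71% of all genes were called. Over all genes, 1732 of 7624, 1285 of 6890 and 1683 of 7606 had an unadjusted p under 0.05 there. At NC12 1 of 6 was called, where 4.37% of all genes were called. It was *Hsp23*, at 44.6, 22.5, 37.8 and 57.3 CPM in *brat* hets and 94.1, 123, 92.6 and 122 CPM in *HisRFP*, without overlap (log2 fold change -1.37, SE 0.25, adjusted p = 0.00997, edgeR). This call held in all 15 other fits (adjusted p up to 0.0365). *brat* mutants at NC12 had 66.9, 134, 94.7 and 74.8 CPM of *Hsp23*, above every *brat* het embryo, but the difference between *brat* mutants and *brat* hets did not pass (1.17, SE 0.30, adjusted p = 0.0677). With DESeq2 it did (adjusted p = 0.00332). Without *HisRFP* NC12 embryo C, *Hsp26* was also called lower in *brat* hets (-1.26, adjusted p = 0.0314).

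Between *brat* mutants and *brat* hets no member was called by edgeR in oocytes, at NC10, at NC12 or at later NC14 (0 of 6, 6, 6 and 7), with 1, 1, 2 and 1 at an unadjusted p under 0.05, where 7.5%, 0.175%, 1.74% and 1.96% of all genes were called. Over all genes, 1963 of 7150, 489 of 6848, 1169 of 6893 and 1532 of 7712 had an unadjusted p under 0.05. Of the members, DESeq2 called 1, *Hsp23* at NC12. *Hsp27* in oocytes was at 1045, 1037, 818 and 1017 CPM in *brat* hets, below all *brat*-mutant oocytes (log2 fold change 0.46, SE 0.14, adjusted p = 0.0588).

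A wider list of 46 genes, of HSF and stress-induced genes, further small heat shock proteins, HSP70 relatives, HSP90 relatives and cochaperones, and chaperonins, was tested in the same fits. None of the 32, 29, 29 and 30 genes tested was called between *brat* mutants and *HisRFP* in oocytes, at NC10, at NC12 and at NC13 by edgeR, with 4, 2, 7 and 2 at an unadjusted p under 0.05 and 1, 0, 0 and 0 called by DESeq2. Of all genes, edgeR called only 1.15%, 3.27%, 5.64% and 3.91% at these stages. Over all genes, 1173 of 7310, 1206 of 6842, 1635 of 6831 and 1364 of 7316 had an unadjusted p under 0.05, and DESeq2 called 341, 298, 437 and 641. At early NC14 3 of 33 were higher and 2 lower, where 13.8% of all genes were called, a like share. Among the higher ones was *Trap1*, the mitochondrial HSP90, at 34.6 ± 8.54 against 7.37 ± 4.58 CPM (log2 fold change 2.22, SE 0.44, adjusted p = 0.00597, edgeR; SD, n = 4). Another was *Hsc70-5*, the mitochondrial HSP70, at 24.9 ± 3.76 against 6.99 ± 3.47 CPM (1.81, SE 0.36, adjusted p = 0.00638). *Fkbp59*, an HSP90 cochaperone, was lower (-1.04, SE 0.33, adjusted p = 0.0478). The median log2 fold change of the list was -0.16, beside -0.06 over all genes tested.

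At later NC14 2 of 30 genes of the list were higher in *brat* mutants and 1 lower, where 13.7% of all genes were called. The long noncoding RNA *lncRNA:Hsromega*, which is strongly induced by heat, was at 201 ± 32.3 against 51.4 ± 12.1 CPM (log2 fold change 1.92, SE 0.20, adjusted p = 0.000196, edgeR; SD, n = 4), with *brat* hets between them at 103 ± 21.4 CPM (against *HisRFP* 1.06, SE 0.22, adjusted p = 0.0212). *Hsp70Ab* was higher (4.74, SE 1.23, adjusted p = 0.0211), with the same limit as *Hsp70Aa*, and *CCT5*, a subunit of the cytosolic chaperonin, was lower at 43.5 ± 14.1 against 107 ± 19.3 CPM (-1.35, SE 0.23, adjusted p = 0.00294). *Hsf*, which encodes the heat shock transcription factor, was at 148 ± 39.3 CPM in *brat* mutants and 123 ± 24.0 CPM in *HisRFP*, and *Hsp68*, an inducible HSP70 relative, at 7.53 ± 2.28 and 9.30 ± 1.13 CPM. Neither *Hsf* nor *Hsp68* was called there. In *brat* hets *Hsp68* was lower than in *HisRFP* at NC12 (3.43 ± 0.419 against 14.9 ± 6.50 CPM, log2 fold change -2.08, SE 0.33, adjusted p = 0.00465) and at later NC14 (-1.14, SE 0.27, adjusted p = 0.0393).

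In oocytes *lncRNA:Hsromega* (0.309 ± 0.466 against 17.7 ± 9.50 CPM) and *stv*, a cochaperone induced by stress (0.56 ± 0.653 against 12.2 ± 10.4 CPM), were lower in *brat* mutants than in *brat* hets (log2 fold changes -5.38, SE 0.68, adjusted p = 0.000832, and -4.17, SE 0.91, adjusted p = 0.0165, edgeR). Follicle cell markers summed to between 55.4 and 267 CPM in these *brat*-mutant oocytes and between 17602 and 60198 CPM in the *brat* het oocytes, and their part in this result was not tested. Along the *HisRFP* time course, 4 of 32, 4 of 29 and 10 of 30 genes of the list fell at the first 3 steps and none rose, and 7 of 32 rose and 2 fell from early to later NC14, where 12.7%, 14.9%, 22.4% and 34.3% of all genes were called. *Stip1*, the cochaperone that joins HSP70 and HSP90, went like *Hsp83*. It fell from 121 ± 49.0 to 19.6 ± 4.97 CPM from NC12 to NC13 (-2.62, SE 0.42, adjusted p = 0.0221) and rose from 15.1 ± 5.52 to 55.9 ± 13.5 CPM from early to later NC14 (2.04, SE 0.30, adjusted p = 0.000743). *CCT2*, another chaperonin subunit, did likewise, from 19.4 ± 8.79 to 71.5 ± 17.9 CPM at the last step (2.04, SE 0.33, adjusted p = 0.00115).

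Over the 16 group means, on log2(CPM + 1), the genes most like *Hsp83* were *PMP34*, *msps* and *HipHop* (Pearson r = 0.997, 0.994 and 0.993), out of 6681 genes with at least 10 CPM in a group. Those most like *Hsp26* were *alphaTub67C*, *SerRS* and *Acat2* (0.992, 0.992 and 0.991), those most like *Hsp27* were *CG3589*, *NaPi-III* and *CG2694* (0.997, 0.996 and 0.995) and those most like *Hsp60A* were *aralar1*, *Jabba* and *lin-52* (0.996, 0.995 and 0.995). For *Hsp23* (*CG12895*, *Asph* and *CG17219*), *Hsc70-4* (*Hexo1*, *RpS5b* and *CG32099*) and *Hsp70Aa* (*ChLD3*, *CG3036* and *CG7191*) the closest genes had r of at most 0.914, 0.93 and 0.858. Among the members, *Hsp27* and *Hsp60A* were closest to each other (r = 0.962), and *Hsp27* and *Hsp23*, neighbours on 3L, went the most in opposite directions (r = -0.824). The groups share stages and the normalization, so these values are descriptions.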

How the data were processed

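The deposited values are raw read counts per gene. Per the labels and methods, the authors aligned 75-bp reads to dm6 with HISAT2 2.1.0, discarded reads with multiple alignments, filtered them on mapping quality with SAMtools and assigned them to genes with featureCounts 1.5.3 without using strand. Replicates were separate single oocytes or embryos, and no pair of libraries was a repeat of the other. Gene IDs were matched to names in an Ensembl annotation of the same assembly (99.4% matched).

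Each comparison was fitted on the libraries of its own groups. Genes totalling 50 or more reads there were kept, scaled by TMM and tested in edgeR 4.0.16 (R 4.3.3; quasi-likelihood), with Benjamini-Hochberg adjustment. Called genes had an adjusted p below 0.05 with a log2 fold change above 1 or below -1. The standard error is the log2 fold change divided by the square root of F. CPM used TMM factors over all 62 libraries. In data simulated from later NC14 libraries, edgeR recovered 167 of 200 changed genes with 4 libraries against 4 (7759 genes tested). With 3 against 3 it recovered 159 of 200 (7641 tested). It also called 7 and 10 unchanged genes in these fits. Recovery was not tested at other stages, and it was not tested for fold changes near the threshold. DESeq2 1.42.0 and other normalizations, filters, fits and left-out libraries were tried as alternatives. All 8 members are named. Of the wider list, up to 3 called genes per comparison with the largest fold change qualified if either group averaged 5 CPM or more, of which a part is given, and *Hsf* and *Hsp68* at later NC14 were added after their values had been seen. The members, lists and tests were chosen with earlier results of these data known. Figures were made with matplotlib 3.10.9 in Python 3.11.15 (numpy 2.4.6, pandas 2.3.3, scipy 1.17.1).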

Additional observations from a re-analysis of the deposited data

Results flagged for a closer look

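In groups of 4 libraries, the highest or lowest library was singled out where its gap to the nearest other, as a share of the group's range, exceeded Dixon's 95% criterion. Of 97 sets of 4 tested, 12 met it. The criterion assumes independent, normally distributed values. These sets share libraries and include counts near 0, so the 12 cannot be set against a chance rate. For *Hsp83* they were *brat*-mutant oocyte A (2515 CPM) and NC10 embryo A (3638 CPM) and *brat* het later NC14 embryo B (281 CPM). For *Hsp26* they were later NC14 embryo D of *brat* hets (57.1 CPM) and of *brat* mutants (73.5 CPM). For *Hsp27* they were later NC14 embryo D of *HisRFP* (43.1 CPM) and of *brat* hets (38.3 CPM) and *brat* het oocyte C (818 CPM). For *Hsp60A* they were *brat* het NC12 embryo A (149 CPM) and *brat*-mutant early NC14 embryo B (29.5 CPM). For *Hsp70Aa* they were *HisRFP* NC12 embryo D (0.0834 CPM) and later NC14 embryo B (0.12 CPM), each a single read in a group otherwise at 0. Any such group meets the criterion by construction.

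The changes of 2 genes over time met the criteria for a call in a test of the difference between *brat* mutants and *HisRFP*. For *Hsp70Aa* from NC10 to later NC14 the fitted log2 difference was 9.40 (adjusted p = 0.00738, edgeR). It depends on the prior count because *HisRFP* had 1 read in all at later NC14. The gene was tested only because of its *brat*-mutant later NC14 reads, so the call is no support beyond those reads. For *Hsp23* from early to later NC14 the fitted log2 difference was 1.17 (adjusted p = 0.0231, edgeR). This call was lost in the edgeR fit of all 62 libraries (adjusted p = 0.166).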

How the results depend on the processing

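Of 30 calls of members, 27 were kept under every other normalization, filter, tool and fit in which the gene was tested. Of these, 22 were also kept under every left-out library that was tried. The calls of *Hsp70Aa* count as kept although filterByExpr did not test it, and the interactions were not refitted with libraries left out. No called fold change changed sign (0 of 427 refits), but over all members tested 110 of 2590 did, none of them called before or after, with log2 fold changes of at most 0.38 in size to begin with. Over all settings but left-out libraries, 189 of 210 counts of members called stayed within 1.5 times. The cause of the other moves was not tested, except that edgeR's filterByExpr removed *Hsp70Aa* from testing, which took *brat* mutant against *HisRFP* at later NC14 and the NC10 to later NC14 interaction from 1 to 0. DESeq2 gave 1 in place of 0 for *brat* mutant against *brat* het at NC12 and for *HisRFP* NC13 to early NC14, and 2, 3 and 3 in place of 0 for the *brat*-mutant steps from NC10 to NC12, NC12 to NC13 and NC13 to early NC14. Testing genes with at least 1 read gave 1 in place of 0 for *brat* mutant against *brat* het at NC12, 2 in place of 1 from *brat*-mutant oocyte to NC10, and 4 and 3 in place of 0 for the *brat*-mutant steps from NC12 to NC13 and NC13 to early NC14. A common fit of all 62 libraries gave 1 in place of 0 for *brat* het against *HisRFP* at later NC14, 1 in place of 2 from *HisRFP* oocyte to NC10 (as did scaling to library totals, 1), 3 in place of 0 from *HisRFP* NC13 to early NC14, and 2, 3 and 1 in place of 0 for the last 3 *brat*-mutant steps before later NC14. Leaving out each library in turn gave 0 to 1 members for *brat* mutant against *HisRFP* at NC10, 1 to 2 for *brat* het against *HisRFP* at NC12, 1 to 2, 0 to 4 and 0 to 1 for the *HisRFP* steps from oocyte to NC10, NC12 to NC13 and NC13 to early NC14, and 0 to 3, 0 to 1 and 0 to 3 for the *brat*-mutant steps from oocyte to NC10, NC10 to NC12 and NC13 to early NC14. *Hsp26* from *brat* het NC12 to later NC14 was lost without NC12 embryo A or without later NC14 embryo A, B or C. Counts over all genes were not computed with a library left out.

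The labels do not say whether the replicate letters pair the libraries, and the counts do not settle it. In no comparison did every same-letter pair correlate above 0.1 in its deviations from the group means. Single pairs of *brat* mutant against *HisRFP* ran from -0.369 (letter C at NC12) to 0.448 (letter D at NC13). A shared collection or run was not tested beyond this and the block. With the letter as a block, 1 member in place of 0 was called from *HisRFP* NC13 to early NC14, 2 in place of 0 from *brat*-mutant NC10 to NC12 and 2 in place of 1 in the early to later NC14 interaction, and *Hsp26* from *HisRFP* NC12 to NC13 was lost. Over all genes, the block changed the count called from 385 to 233 and from 286 to 7 for *brat* mutant against *HisRFP* at NC12 and NC13, from 146 to 21 for *brat* het against *HisRFP* in oocytes, from 12 to 3 and from 151 to 68 for *brat* mutant against *brat* het at NC10 and later NC14, from 0 to 705 at *HisRFP* NC13 to early NC14 and from 152 to 773 at *brat*-mutant NC10 to NC12.

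Counts over all genes also moved by over 1.5 times with DESeq2 in 12 of 30 comparisons, such as 84 to 341 and 286 to 641 for *brat* mutant against *HisRFP* in oocytes and at NC13, with the common fit in 9 (84 to 584 and 286 to 818 for the same pair), with genes of at least 1 read in 4 (286 to 489 at NC13) and with filterByExpr in 1 (84 to 134 in oocytes). Scaling to library totals shifted the median log2 fold change of all genes by over 0.1 in 9 comparisons (-0.33 to 0.14). *Hsp70Aa* rests on few reads, and at later NC14 a count of 0 reads in a library allows up to the level of 3 reads. P-values measure the spread between single oocytes or embryos, and nothing in the labels ties them to separate mothers.

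Among uncalled values given in the report, these changed sign. *Hsp27* in *brat* mutants against *HisRFP* at later NC14 was 0.0461 with RLE factors, 0.036 with DESeq2, 0.0288 with genes of at least 1 read, 0.0385 in the common fit, 0.27 with the replicate block and -0.48 to 1.10 with a library left out. *Hsp26* at early NC14 was -0.0029 with filterByExpr, -0.00507 with the block and -0.15 to 0.15 with a library left out, and its change from early to later NC14 was -0.14 to 0.15 in *HisRFP* and -0.51 to 0.17 in *brat* mutants with a library left out (0.0238 in *brat* mutants with filterByExpr). Left-out libraries gave -0.45 to 0.16 for *Hsp83* and -0.16 to 0.0603 for *Hsp23* in *brat* mutants against *HisRFP* at later NC14, and -1.21 to 0.49 for *Hsp27* and -0.49 to 0.41 for *Hsp60A* from early to later NC14 in *HisRFP*.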
